A study of Mus musculus with 9 samples.

Results

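The 9 genes described here encode the CD3 subunits of the T cell antigen receptor (TCR) and the enzymes and adaptors that act first when it is engaged: Cd3e, Cd3d, Cd3g, Cd247, Lck, Zap70, Lat, Lcp2 and Prkcq. They were chosen by name, and all 9 were found among the 22380 protein-coding genes of the GENCODE vM1 annotation of the mm9 genome. Acetylation of histone H3 at lysine 27 (H3K27ac), a mark of active enhancers and promoters, was measured with ChIP-seq on CD8+ naive T cells of 2 genotypes. Both groups carried the hCD2-Cre transgene and a Rosa26 GFP reporter. WT mice had intact alleles (Tcf7+/+ and Lef1+/+) and dKO mice had floxed alleles (Tcf7 fl/fl and also Lef1 fl/fl), so that only dKO cells could lose the transcription factors Tcf1, encoded by Tcf7, and Lef1. This Cre acts mostly in mature T cells, and GFP marked the cells in which Cre had acted. The mice were 6 to 12 weeks old, of both sexes and on the C57BL/6 background, and GFP+ TCRβ+ CD62L+ CD44-low to CD44-medium CD8+ cells were sorted. The study describes cell suspensions made from the spleen and lymph nodes. There were 4 WT and 3 dKO H3K27ac samples, and each genotype had 1 input, which made 9 samples. The question asked of these genes is whether their H3K27ac signal differed between WT and dKO cells.

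The replicates of each genotype were pooled before enriched stretches of the genome, called islands, were found, so there is 1 list of islands per genotype with a read count for each island. No value per replicate exists in these lists, and no test between genotypes was possible. Intervals given in brackets are 95% intervals of the counting error only. A gene's window ran from its gene body to 50 kb upstream of its transcription start site (TSS), and the counts of every island touching it were summed and divided by the total island counts of the list. The ratio of these scaled counts is given as log2 of dKO to WT, so that 1 means doubled in dKO, and a gene 1.5-fold or more apart in either direction was called. Counts grow with the width of the islands as well as with their depth, so the ratio was also taken per covered kb. A CPM value is an island count scaled so that all island counts of a list sum to 1000000. The cells were measured in bulk, so fewer cells carrying the mark and less of it per cell cannot be told apart.

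The WT list held 65563 islands with 82668007 counts and the dKO list held 82213 islands with 57665047 counts. Of the protein-coding genes, 16487 had islands in both lists within their window, and all 9 receptor and signalling genes were among them. Over these 16487 genes the median log2 ratio was −0.03 by counts and −0.16 by counts per kb, against which the values below are read. The sorted cells were checked by islands at the promoters of marker genes. Of the 5 CD8 T cell markers, Cd3e, Cd3d and Cd3g are genes described here and check nothing, and the other 2, Cd8a and Cd8b1, had an island in both lists. So did all 5 myeloid markers, while 4 of 5 B cell markers had one in WT and 5 of 5 in dKO. NK cell markers had one for 3 of 4 genes in both lists, both CD4 T cell markers had one, and dendritic cell markers had one for 2 of 3 genes in WT and 1 of 3 in dKO. The globin genes Hba-a1 and Hbb-b1, which mark erythroid cells, had none. With each island counted once per list of markers, the summed promoter counts were 362 CPM in WT and 292 CPM in dKO for Cd8a and Cd8b1, which shared 1 island in WT, 284 and 409 CPM for the B cell markers, and 124 and 104 CPM for the myeloid markers. They were 59.0 and 76.6 CPM for CD4 T cells, 101 and 95.4 for NK cells, and 15.0 and 3.03 for dendritic cells. The part of other cells in the results below was not tested. Over the floxed genes themselves, the log2 ratio of counts was 0.17 (0.15 to 0.18) for Tcf7 and −0.30 (−0.31 to −0.28) for Lef1. An island spans far more than a floxed exon, so these values do not check the deletion.

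The TCR α and β chains bind antigen but have almost no tail inside the cell, and the signal is carried by the CD3 γε and δε dimers and the ζ homodimer. Their cytoplasmic tails hold tyrosine motifs (ITAMs) that the kinase Lck phosphorylates. The kinase Zap70 docks on these motifs and phosphorylates the adaptors Lat and Slp-76 (encoded by Lcp2), on which the downstream enzymes assemble. Protein kinase C θ (encoded by Prkcq) passes the signal on towards the transcription factor NF-κB. Naive CD8+ T cells express these genes before they meet antigen.

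The promoters of 4 of the 9 genes are printed here. Over islands within 1 kb of a TSS, Cd247 had the most positive difference per covered kb among the 9 and Lcp2 the most negative. Those islands covered 76.6 kb at Cd247 and 29 kb at Lcp2 in WT, so no difference is placed within the printed bases. The promoters of Cd3d and Zap70, like those of Cd247 and Lcp2, hold the letters TCAAAG bound by Tcf1 and Lef1. Each run is 300 bases of the mm9 genome, 5′ to 3′ along the gene, from 250 bases before the outermost annotated TSS to 50 bases from it on. Capitals mark matches, on either strand, to any of 5 motifs, and no matches overlap. The motif searched for Tcf/Lef factors was TCAAAG. That for the ETS family of factors was GGAAGT. For the RUNX factors the letters searched were TGTGGT. For E proteins, whose motif reads alike on both strands, they were CAGCTG. For the GATA family of factors they were AGATAA. Cd247 lies on the plus strand at chr1:167718562-167718861, Cd3d on the plus strand at chr9:44789626-44789925, Zap70 on the plus strand at chr1:36818445-36818744 and Lcp2 on the plus strand at chr11:33946670-33946969.
Cd247: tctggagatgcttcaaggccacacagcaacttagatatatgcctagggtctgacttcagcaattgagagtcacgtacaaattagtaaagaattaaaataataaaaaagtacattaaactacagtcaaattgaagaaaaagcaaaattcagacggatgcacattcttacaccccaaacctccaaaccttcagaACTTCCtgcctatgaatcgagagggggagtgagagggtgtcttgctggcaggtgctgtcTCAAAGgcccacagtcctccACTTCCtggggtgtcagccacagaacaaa
Cd3d: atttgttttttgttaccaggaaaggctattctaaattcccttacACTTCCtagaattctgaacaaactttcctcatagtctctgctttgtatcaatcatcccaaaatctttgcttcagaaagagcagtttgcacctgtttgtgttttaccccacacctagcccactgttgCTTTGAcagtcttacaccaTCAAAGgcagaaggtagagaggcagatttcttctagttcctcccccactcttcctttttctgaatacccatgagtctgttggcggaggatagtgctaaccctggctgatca
Zap70: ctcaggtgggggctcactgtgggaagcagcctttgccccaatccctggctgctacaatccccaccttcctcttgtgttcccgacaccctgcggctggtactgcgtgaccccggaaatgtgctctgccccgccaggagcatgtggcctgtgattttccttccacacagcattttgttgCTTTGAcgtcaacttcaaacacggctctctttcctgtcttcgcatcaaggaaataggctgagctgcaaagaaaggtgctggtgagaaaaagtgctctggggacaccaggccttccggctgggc
Lcp2: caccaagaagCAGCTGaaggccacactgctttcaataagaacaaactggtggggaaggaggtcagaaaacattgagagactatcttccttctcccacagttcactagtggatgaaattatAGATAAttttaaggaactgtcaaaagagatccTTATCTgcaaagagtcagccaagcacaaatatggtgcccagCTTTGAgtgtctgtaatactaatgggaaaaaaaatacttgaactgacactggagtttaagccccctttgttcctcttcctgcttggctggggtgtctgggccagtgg

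In the Cd247 promoter TCAAAG stood on the gene's strand at positions 2 to 7, counted from 1 at the TSS, between a pair of ETS matches. Cd3d held it at 2 positions, on the opposite strand at positions −80 to −75, and on the gene's strand at −61 to −56. Zap70 held it at −73 to −68 and Lcp2 at −57 to −52, both on the opposite strand. Among the 21845 promoters searched in the same way, 15.1% held TCAAAG on either strand. ETS letters stood in 4 of the 9 promoters (Cd3e, Cd3d, Cd247 and Lck) and in 24.4% of all promoters. E protein letters stood in 3 of 9 (Cd3g, Lat and Lcp2) against 15.2%, RUNX letters in 2 of 9 (Lck and Lat) against 15.3%, and GATA letters in 2 of 9 (Cd3g and Lcp2) against 10.4%. Only Prkcq held none of the 5 motifs. A match describes the letters and not binding.

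By counts, 3 of the 9 genes were called higher in dKO (Cd247, Cd3e and Zap70) and 0 were called lower over their windows. Among all 16487 genes 11.5% were called higher and 11.5% lower. By counts per covered kb, 1 of the 9 (Cd247) was called higher and 0 lower, where 0.425% of all genes were called higher and 9.28% lower. The median over the 9 genes was 0.01 by counts and −0.17 by counts per kb, close to the medians of all genes given above. Zap70 lay just inside the threshold, at 1.56-fold by counts, and Cd3d just outside it, at 1.47-fold. Cd247 was thus called higher in dKO on both measures, and the depth ratio of the other 8 genes was not called.

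**Figure D1:**
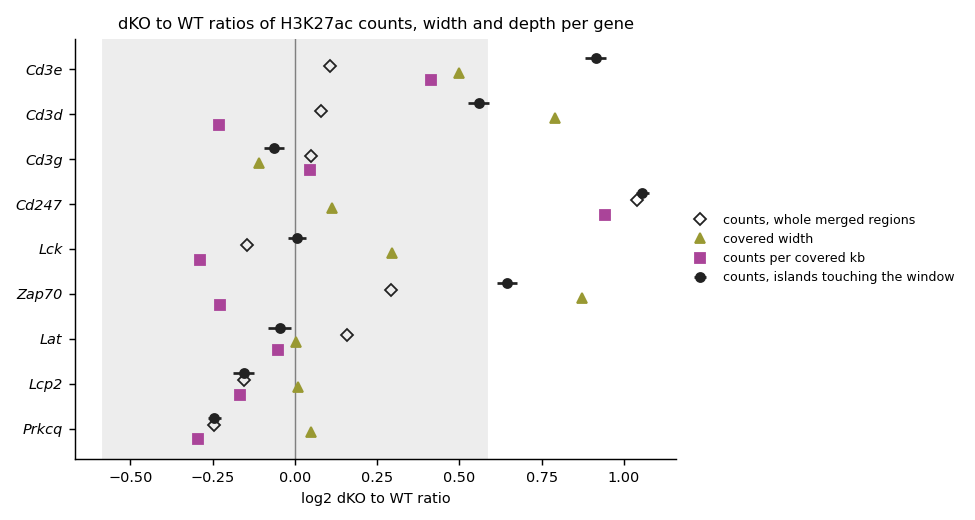
Log2 dKO to WT ratios (x axis) for the 9 genes (y axis) from 1 pooled island list per genotype: counts of islands touching the window (filled circles, bars are 95% counting intervals), counts of whole merged regions (diamonds), covered width (triangles) and counts per covered kb (squares). The grey band marks ratios under 1.5-fold. Cd247 is outside the band on all but width, while for Cd3e and Zap70 the filled circle is outside it and the diamond, at 0.11 and 0.29, is inside.

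Cd247 encodes CD3ζ, the subunit with the most ITAMs and the one whose supply limits how many complete receptors reach the cell surface. The gene covers 88.6 kb on chromosome 1 (167718812 to 167807407, plus strand). WT islands touching its window carried 35701 counts on 112 kb, and dKO islands carried 51771 on 121 kb. Scaled to the list totals, this was 432 CPM for WT and 898 CPM for dKO cells, giving a log2 count ratio of 1.06 (1.04 to 1.08). The covered width changed little, with a log2 ratio of 0.11. The depth was 319 counts per kb in WT and 427 in dKO although the dKO list held fewer counts in all, and the log2 ratio per kb was 0.94 (0.92 to 0.96). By this ratio Cd247 ranked 13 among the 16487 genes from the highest down.

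The difference at Cd247 lay mostly in 1 stretch. WT cells had 2 islands there, of 17737 counts (167717601 to 167763600) and 11069 counts (167764201 to 167793600). dKO cells had a single island over the whole 76 kb, with 46112 counts, which ranked 4 by count among the 82213 islands of the dKO list. The stretch runs from 1.2 kb before the TSS to 74.8 kb into the gene, and 95.9% of it is intron and 2.52% exon of Cd247. Its log2 ratio was 1.20 (1.18 to 1.22) by counts and 1.19 per kb. The other 9 regions of the window with islands in both lists had log2 ratios from −0.09 to 0.95 by counts and from −0.19 to 0.32 per kb, so none of them was called by depth. Together with the regions found in 1 list alone they held 7635 WT and 6182 dKO counts. Within the single dKO island the counts cannot be divided further, and which part of the intron gained could not be resolved. All 3 accessible sites that the study paired with Cd247 lie inside this stretch. They belong to a group that the study picked for higher accessibility in dKO and paired with genes of higher expression in dKO. Their direction was thus fixed by the choice and is given as a description.

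**Figure D2:**
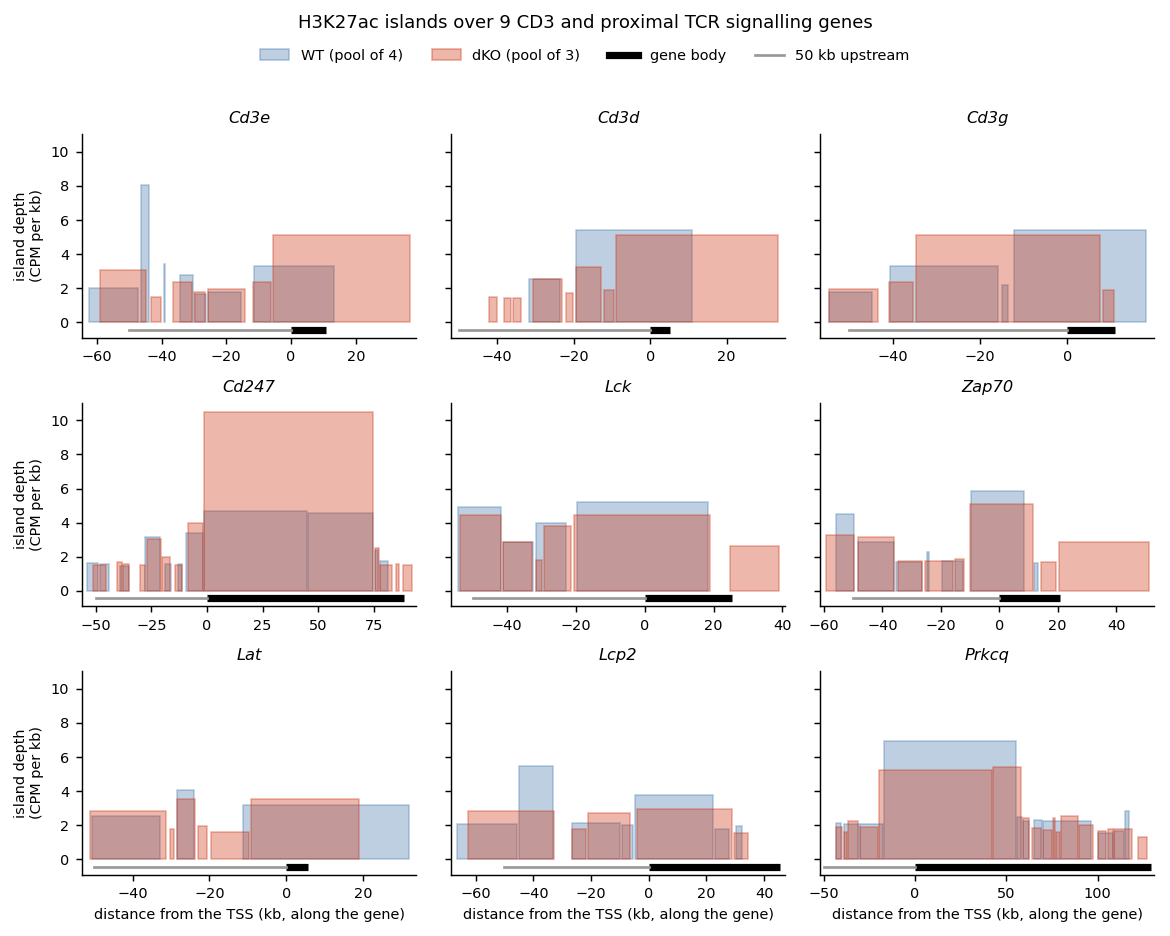
Islands over each of the 9 genes, drawn as boxes from their start to their end in kb from the TSS along the gene (x axis, a different range in each panel), with height as CPM per kb (y axis, shared). Blue is the WT pool of 4 samples, red the dKO pool of 3, the black bar is the gene body and the grey line the 50 kb upstream. The dKO island over Cd247 stands at more than double the WT boxes, and the Cd3 panels show WT islands that a single dKO island bridges.

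Cd3e, Cd3d and Cd3g encode CD3ε, CD3δ and CD3γ and lie side by side on chromosome 9. Cd3g (44777655 to 44788514, minus strand) and Cd3d (44789876 to 44795135, plus strand) point away from each other with 1362 bp between their TSSs. Cd3e (44806826 to 44817673, minus strand) has its TSS 27797 bp beyond that of Cd3d. Their windows overlap, so the 3 genes share islands and are not independent of each other. The island shared by the Cd3d and Cd3g windows in WT held 88.7% of the Cd3d counts and 61.3% of the Cd3g counts.

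At Cd3e, WT islands carried 13918 counts on 60.4 kb and dKO islands 18293 on 85.4 kb. Its log2 ratio was 0.91 (0.88 to 0.95) by counts and 0.41 (0.38 to 0.45) per kb. At Cd3d, WT islands carried 15230 counts on 38.4 kb and dKO islands 15648 on 66.4 kb, with ratios of 0.56 (0.53 to 0.59) by counts and −0.23 per kb. At Cd3g the figures were 22015 counts on 66.4 kb for WT and 14690 on 61.6 kb for dKO, with ratios of −0.06 (−0.09 to −0.03) by counts and 0.04 per kb. Scaled counts therefore ranged from 0.96-fold at Cd3g to 1.88-fold at Cd3e among neighbouring genes.

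These values followed the island borders. In WT the cluster held islands at 44770601 to 44800800 (13506 counts), 44802201 to 44803600 (250 counts) and 44804401 to 44829200 (6799 counts). In dKO 1 island at 44781001 to 44823200 (12395 counts) bridged the gaps between them, and smaller islands of 1197, 286 and 763 counts flanked it. The Cd3e window touches the bridging island in dKO but misses the largest WT island, which lies over Cd3d and Cd3g. When the islands of both lists were merged, the whole cluster formed a region of 58.8 kb that contained the 3 genes. It held 20555 counts in WT, or 364 counts per kb, against 258 per kb in dKO, and the log2 ratio was 0.03 (−0.00 to 0.06) by counts and 0.02 per kb. Counted over whole merged regions, the ratio of the Cd3e window was 0.11 and that of the Cd3d window 0.08. With only islands that had at least 50% of their width inside the window it was −1.22 for Cd3e and −1.71 for Cd3d, so the call at Cd3e and its direction depended on how islands at the window's edge were counted. With the 3 windows joined into 1 it was 0.13 (0.11 to 0.15) by counts and −0.05 per kb.

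Lck encodes the Src family kinase that binds the CD8 and CD4 coreceptors and phosphorylates the ITAMs. The gene lies on chromosome 4 (129225588 to 129250885, minus strand). Its window carried 26554 WT counts and 18607 dKO counts, or 321 and 323 CPM, so that the log2 count ratio was 0.01 (−0.02 to 0.03). The depth was 389 and 223 counts per kb and the log2 ratio per kb −0.29 (−0.31 to −0.26). The annotation gives Lck 7 TSSs, and in each list a single island covered all of them. It had 16541 counts on 38.2 kb in WT and 10101 on 39.4 kb in dKO, and the log2 count ratio was −0.19. A dKO island downstream, with the Hdac1 promoter, touched the window with 4.32% of its width. Without it the ratio of the Lck window was −0.17. The window also holds the TSSs of 6 neighbouring genes, among them Eif3i and Iqcc.

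Zap70, on chromosome 1 (36818695 to 36839663, plus strand), encodes the Syk family kinase recruited to phosphorylated ITAMs. WT islands carried 16558 counts on 54.8 kb and dKO islands 18068 on 100.4 kb. The ratio was 0.65 (0.62 to 0.68) by counts, −0.23 (−0.26 to −0.20) per kb and 0.87 for the covered width, so the higher counts went with wider islands of lower depth. One dKO island of 30.6 kb (36839201 to 36869800) just reached the 3′ end of the gene and lay otherwise beyond it. With islands under 10% inside the window left out, the ratio was 0.17, which is not called. The island over the Zap70 TSS held 8842 counts in WT at 486 counts per kb, and 6349 in dKO at 294 per kb. Its log2 ratio was 0.04 (−0.00 to 0.09) by counts and −0.21 per kb.

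Lat and Lcp2 encode the adaptors on which the signalling complex forms. The Lat window (gene on chromosome 7, 133507346 to 133513057, minus strand) carried 16495 WT and 11143 dKO counts on 65.2 and 65.4 kb, with a log2 count ratio of −0.05 (−0.08 to −0.01). Its promoter island was wider in WT (43.2 kb, 39.5% of it inside the window) than in dKO (28 kb). The log2 ratio of that island was −0.47 by counts and 0.16 per kb. Over the merged region there (133466401 to 133532600) WT had 14188 counts on 56.2 kb and dKO 10520 on 64.4 kb. Its log2 ratio was 0.09 (0.05 to 0.12) by counts and −0.11 per kb. The window also holds TSSs of neighbouring genes, among them Spns1 and Nfatc2ip. The Lcp2 window (gene on chromosome 11, 33946920 to 33992295, plus strand) carried 21815 WT counts on 86.8 kb and 13657 dKO counts on 87.4 kb, with a log2 count ratio of −0.16 (−0.19 to −0.13). The window met 4 regions, all with islands in both lists. The long region at the 5′ end of Lcp2 (33942201 to 33975800) had a log2 count ratio of −0.19 (−0.24 to −0.14), and the region farthest upstream (33880401 to 33914200) had −0.35 (−0.40 to −0.30). The other two had ratios above 0, with 0.19 (0.12 to 0.27) in the region between them (33920401 to 33941600) and 0.93 (0.73 to 1.14) in a short region downstream (33976401 to 33981400). Per kb these 2 ratios were 0.27 and −0.39, the short region holding 327 WT counts on 2 kb and 436 dKO counts on 5 kb. In the region farthest upstream WT had 2 islands, 1 of them with 5337 counts at 452 counts per kb, where dKO had a single one. The covered width there was 32.6 kb in WT and 30 kb in dKO. Over that whole region the unscaled depth was 272 counts per kb in WT and 162 in dKO. The log2 ratio per kb, scaled to the list totals, was −0.23, which is not called.

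Prkcq (chromosome 2, 11093740 to 11222853, plus strand) had the largest counts of the 9 in WT, 54446 on 148 kb, against 32048 on 154 kb in dKO. Its log2 ratio was −0.24 (−0.26 to −0.23) by counts and −0.29 (−0.31 to −0.27) per kb, both the lowest of the 9 as counted here, though neither of these window ratios reached the threshold. The WT island over the TSS spanned 72 kb with 41224 counts and ranked 19 by count among the 65563 WT islands. In dKO this stretch was covered by islands of 18688 and 4874 counts. Counted over the promoter islands alone, Prkcq had 46095 counts on 98.6 kb in WT and 18891 counts on 64.2 kb in dKO, and this log2 count ratio, −0.77 (−0.79 to −0.74), was called lower, while its value per kb was −0.15. The merged region over the WT island and both dKO islands had a log2 ratio of −0.32 (−0.34 to −0.29). The other 7 regions with islands in both lists had ratios from −0.18 to 0.26 by counts. No other protein-coding gene has its TSS in the windows of Prkcq or Lcp2. The outermost islands counted for Lcp2 nevertheless reach the Kcnip1 promoter outside its window, in WT and in dKO. Of their width, 20.6% in WT and 57.6% in dKO lay inside the window.

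Per covered kb and scaled to the list totals, the order of the 9 genes from the highest level down was Cd3d (4.80 CPM per kb), Lck (4.71), Prkcq (4.44), Cd3g (4.01), Cd247 (3.86), Zap70 (3.66), Lat (3.06), Lcp2 (3.04) and Cd3e (2.79) in WT. In dKO it was Cd247 (7.41 CPM per kb), Cd3g (4.14), Cd3d (4.09), Lck (3.86), Cd3e (3.71), Prkcq (3.62), Zap70 (3.12), Lat (2.95) and Lcp2 (2.71). Cd247 went from the fifth place to the first, and the rank of its level among all 16487 genes went from 2985 to 61. Replicate spread is not known, so neighbours in either order cannot be told apart beyond counting error.

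**Figure D3:**
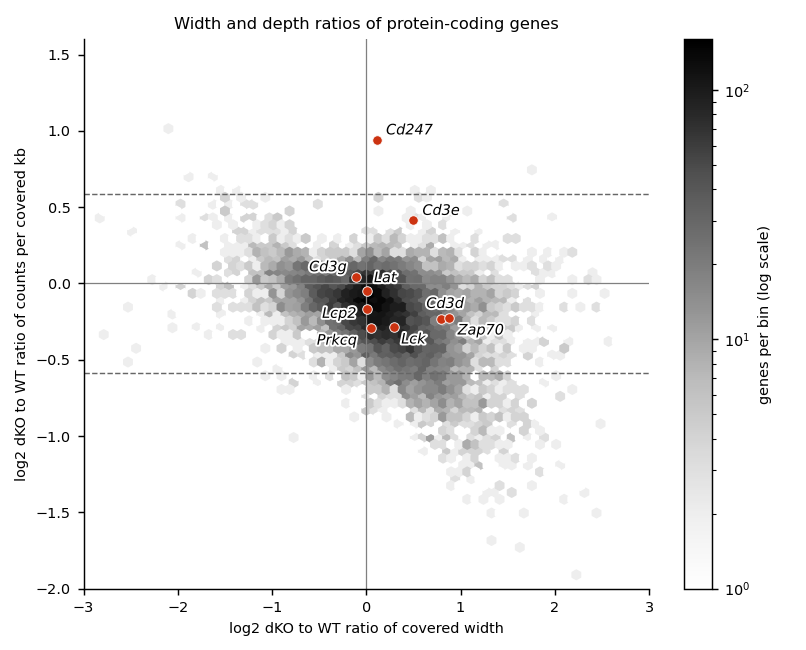
Log2 dKO to WT ratio of covered width (x axis) against that of counts per covered kb (y axis) for the protein-coding genes that had islands in WT and in dKO, shaded by the number of genes per bin on a log scale, with the 9 genes as red points. Dashed lines mark the 1.5-fold threshold and 78 genes lie outside the axes. Cd247 sits above the upper dashed line near zero width change, Cd3e under that line, Zap70 and Cd3d to the right with wider islands, and the rest within the bulk of genes.

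Promoter islands, those within 1 kb of an annotated TSS of the gene, gave 2 of the 9 called higher by counts (Cd3e at a log2 ratio of 1.39 and Cd247 at 1.19) and 1 called lower (Prkcq at −0.77), where 13% of 13558 promoters were called higher and 20% lower. The count ratios at the other 6 ran from −0.47 at Lat to 0.43 at Cd3g. The same islands gave 2 of the 9 called higher per kb and 0 called lower, where 2.12% of all promoters were called higher and 17.4% lower. The pair per kb were Cd247, with 379 counts per kb in WT and 597 in dKO and a log2 ratio of 1.18, and Cd3e, with 274 and 294 counts per kb and 0.62. The Cd247 islands counted here were mostly the 76 kb stretch described above. It held 28806 of their 29043 WT counts and 46112 of their 46341 dKO counts, so this value is no separate measure of the promoter. The Cd3e value again sets a WT island over Cd3e alone against the dKO island that spans the cluster. At Prkcq the promoter islands counted covered 98.6 kb in WT and 64.2 kb in dKO. Over the merged region at its TSS the log2 count ratio was −0.32, which is not called. The ratio per kb was −0.09 at Cd3d, −0.14 at Cd3g, −0.15 at Prkcq, −0.24 at Lck, −0.40 at Zap70, −0.41 at Lcp2 and 0.16 at Lat. Of the 4 genes whose printed promoter holds TCAAAG, Cd247 thus had the highest of these ratios, Zap70 and Lcp2 the lowest, and Cd3d one between them. The Zap70 and Lcp2 values include islands at other TSSs of the gene. At Zap70 such an island, of 490 counts 14.3 to 19.3 kb into the gene, was in dKO alone. Over the merged region at the printed promoter the ratio per kb was −0.21 at Zap70 and −0.24 at Lcp2. It was −0.24 at Lck and −0.31 at Prkcq, so the low ranks of Zap70 and Lcp2 depended on the islands counted.

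The remainder of the pathway was described by 42 other genes of TCR signalling, covering coreceptors, kinases, adaptors, phosphatases and negative regulators, all of which had islands in both lists. By counts 1 of 42 was called higher in dKO and 2 lower, against the 11.5% and 11.5% of all genes. Per covered kb 0 were called higher and 2 lower, against 0.425% and 9.28%. The median log2 ratio was −0.04 by counts and −0.13 per kb. The highest count ratios were those of Sla2, an adaptor that dampens TCR signalling (0.65), Csk, the kinase that inhibits Lck (0.54), and the adaptor Skap1 (0.37). Sla2 had 13097 WT counts on 51.6 kb and 14385 dKO counts on 73.4 kb, and its log2 ratio per kb was 0.15.

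The lowest count ratios were those of Cd8b1, the β chain of the CD8 coreceptor (−0.84), Cblb, an E3 ubiquitin ligase that restrains T cell activation (−0.75), and the Tec family kinase Txk (−0.52). Cd8b1 had 39342 WT counts on 97 kb and 15278 dKO counts on 64.8 kb, so part of the difference was width, and its log2 ratio per kb was −0.26. Called lower per kb were Cblb (274 counts per kb in WT and 126 in dKO, log2 ratio −0.60) and Ptpn22, a phosphatase that acts on Lck and Zap70 (415 and 186 counts per kb, log2 ratio −0.64). Both lost their call per kb when the lists were scaled on regions with islands in both, which raised every log2 ratio by 0.07. No gene of this list reached the depth ratio of Cd247, the highest being 0.15 at Sla2.

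**Figure D4:**
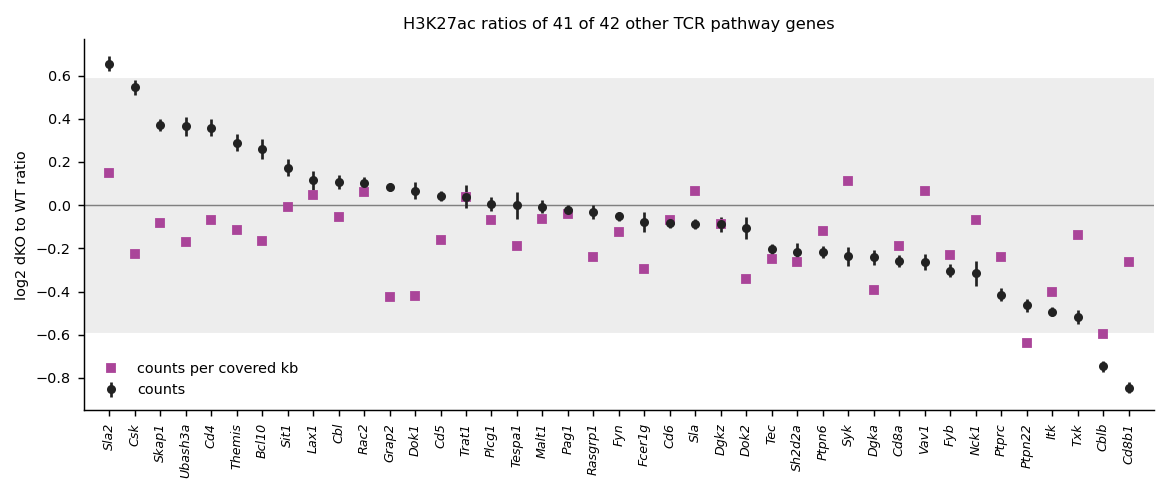
Log2 dKO to WT ratios (y axis) of 41 of the 42 other TCR pathway genes (x axis, ordered by count ratio): counts with 95% counting intervals as circles, counts per covered kb as squares. The grey band marks ratios under 1.5-fold, and only Sla2 lies above it, while Cd8b1, Cblb and, per kb, Ptpn22 lie below.

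Cd247 and Cd3d were also paired with super-enhancers, clusters of islands stitched into 1 unit, in a list that the study drew from these same libraries for a higher signal in dKO. The direction there was fixed by the choice and is given as a description. Islands of the stretch paired with Cd247 (regions from 167591401 to 167823200) carried 52501 WT and 65049 dKO counts, and the ratio was 0.83 (0.81 to 0.85) by counts and 0.65 per kb. The stretch paired with Cd3d touched 31 separate regions (from 44651801 to 45172600), which reach well beyond the Cd3 genes. Their islands carried 85882 WT and 69399 dKO counts, and the ratio was 0.21 (0.20 to 0.23) by counts and −0.03 per kb.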

How the data were processed

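The authors sequenced H3K27ac ChIP DNA (antibody ab4729), aligned reads to mm9 with Bowtie2 2.2.5, required a MAPQ above 10, merged the replicates within each genotype and ran SICER 1.1 with windows of 200 bp, gaps of 400 bp and an FDR under 0.01. The deposited counts are whole numbers per island, not scaled for depth or width. Whether duplicate reads were removed is not given in the sources used here. Input samples were not analysed here.

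Where no island was called the count is missing, not zero, although such stretches added nothing to the sums given here. A shift of an island's border alone changes its count. Scaling by island totals removes differences in enrichment along with depth, and without molecular identifiers reads may repeat a molecule. Positions are 1-based on mm9. Islands of both lists sharing at least 1 bp were merged into regions. Intervals are 95% Wilson intervals of the dKO share of counts. Promoter sequences came from the NCBIM37 assembly, which is mm9, chromosomes 18 and M left out. Symbols missing from the annotation were matched by RefSeq synonyms. The 9 genes and the lists were chosen with earlier results of these data known. Named from the list of 42 were genes called per kb and the 3 highest and 3 lowest count ratios. A few genes of the lists are counted but not reported singly here. Steps were tested on simulated data with python 3.11.15, numpy 2.4.6 and pandas 2.3.3. Alternatives changed scaling, window, edge islands, a minimum of 200 counts, the promoter width (250 bp) and the ratio called (1.25 or 2).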

Additional observations from a re-analysis of the deposited data

How the results depend on the processing

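Cd247 was called higher in dKO by counts under every alternative run, with log2 ratios from 1.04 to 1.14, and per kb from 0.90 to 1.03, so a threshold of 2-fold kept it by counts and left 0 of the 9 genes called per kb. The count of the 9 genes called higher by counts was 3. It became 4 (with Cd3d) under both scalings on shared regions and at the looser ratio, and 2 with islands at least 50% inside the window. It became 1 with counts prorated to the window, with 50 kb on both sides, at 2-fold, and over whole merged regions, an alternative chosen after seeing the data. With islands at least 50% inside the window, 2 of the 9 were called lower by counts and 1 per kb, Cd3e had a log2 count ratio of −1.22 and Lat one of 1.64, since the bridging dKO island of the Cd3 cluster and the WT island over Lat then drop out. With 10 kb upstream 1 of the 9 (Zap70, −0.63) was called lower per kb. At the looser ratio given under the processing 2 genes were called higher per kb and 2 promoters lower. By counts, a measure of the promoters added after seeing the data, 4 promoters were then called higher and 2 lower. Of the 42 pathway genes, those called higher by counts numbered 2 under both scalings on shared regions and with 10 kb upstream, 3 with islands 50% inside, 5 at the looser ratio, and 0 with prorated counts, 50 kb on both sides, merged regions or 2-fold. Those called lower by counts numbered 1 with prorated counts, islands 50% inside and merged regions, and 3 with a minimum of 200 counts. They numbered 5 with 10 kb upstream, 6 at the looser ratio and 0 at 2-fold. Those called lower per kb numbered 0 under both shared scalings and at 2-fold, 1 with a minimum of 200 counts and 7 at the looser ratio. They numbered 3 with prorated counts, with islands 50% inside and with 10 kb upstream. Leaving out the islands under 10% inside a window and joining the 3 Cd3 windows were also chosen after seeing the data. No paired analysis was possible because the replicates of each genotype were pooled before islands were called, and for the same reason no replicate could be left out. Counting error is small at these depths, and the limit is the unknown spread between replicates.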
